A study of Mus musculus with 4 samples.

Results

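The heat shock chaperones of the cytosol and the mitochondria were examined as a group of 77 genes among the 53465 genes measured. Members were taken by biotype and symbol, as protein-coding genes named Hspa, Hspb, Hspd, Hspe, Hsph, Hsp90a, Dnaja, Dnajb, Dnajc, Tcp1 or Cct2 to Cct8. This choice was made with earlier results of these data known. The endoplasmic reticulum (ER) chaperone genes Hspa5, Hsp90b1, Dnajb9, Dnajb11, Dnajc3 and Dnajc10 were left out. The group is broader than its name in places, since symbols do not follow the compartment. It holds Hspa13, an HSP70 relative of the ER, the ER membrane J proteins Dnajb12, Dnajb14 and Dnajc1, and the nuclear J proteins Dnajc8 and Dnajc9.

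The HSP70, HSP90, HSP60 and CCT chaperones bind unfolded or partly folded proteins and release them in cycles of ATP binding and hydrolysis. HSP40 proteins, also called J proteins, bring clients to HSP70 and stimulate its ATPase, while HSP90 and its co-chaperones act on proteins that are already partly folded, and the ring-shaped HSP60 and CCT complexes fold proteins inside a cavity. Some members are made at all times, and others, above all Hspa1a and Hspa1b, are known for their induction by heat shock factor 1 (HSF1) when unfolded protein accumulates.

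RNA was sequenced from cultured mouse female germline stem cells (FGSCs) that the labels derive from ovary. The control cells (shNC) carried a lentiviral control shRNA. The knockdown cells (shNAT10) were infected with a lentivirus encoding an shRNA against Nat10, with antibiotic selection of infected cells according to the methods. Nat10 encodes the enzyme that writes N4-acetylcytidine (ac4C) into RNA. Each group had 2 libraries. The paper describes them as biological replicates, and the p-values measure the spread between these libraries.

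Values are deposited FPKM, the fragments of a gene divided by its length and by the size of the library, and fragments recovered from them numbered between 11057922 and 14902438 per library. The chaperone genes held 113606 and 116479 of these fragments with shNC and 111955 and 134789 with shNAT10. An mRNA of 1 kb with 3 fragments would have an FPKM between 0.196 and 0.255, depending on the library. Lower values of an mRNA of that length thus rest on very few fragments, but those of longer genes rest on more. Dnajb14, with 15741 exon bases, had 28 fragments at 0.151 FPKM in shNC-1.

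The target of the shRNA was lower in both shNAT10 libraries. Nat10 had 7.79 and 5.42 FPKM with shNC against 2.95 and 3.04 FPKM with shNAT10. The groups did not overlap, and the lower shNC library was well above both shNAT10 libraries. On the scale of log2(FPKM + 0.1), used for every fold change here, Nat10 changed by -1.09 (SE 0.21, n = 2 per group, limma, adjusted p = 0.123). Over the alternative settings its adjusted p ran from 6.37e-05 in limma-voom to 0.527. By the threshold given below it was called lower, but not without shNAT10-1 (at -1.07) or without shNAT10-2 (at -1.11).

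The labelled cell type was only partly reflected in its markers. Of 11 germ cell genes, 10 had a mean under 0.1 FPKM and 6 were listed at 0 in every library, among them Dazl, Dppa3 and Pou5f1, while Ddx4 rested on 2 fragments in all. Ifitm3, which many other cells express too, was the exception, with 9.29 and 22.2 FPKM in the controls and 27.1 and 33.6 FPKM in the knockdown. Its log2 fold change of 1.06 was not called by the test described below, but it was called without shNC-2. Genes of leukocytes were abundant instead. The 6 pan-leukocyte genes summed to 460 and 510 FPKM in shNC and to 381 and 403 FPKM in shNAT10. Cd53, the most abundant of them, was at 174 and 196 FPKM in control and at 121 and 126 FPKM in knockdown libraries. All 6 were tested, and by the test described below 3 were lower in shNAT10, against 7.83% of all genes, and 0 were higher. The lower count was 2 without shNC-1, 0 without shNAT10-1 and 2 without shNAT10-2.

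For the marker counts that follow, 8.41% of all genes were called higher and 7.83% lower. Mast cell genes summed to 312 and 323 FPKM in shNC and to 322 and 318 FPKM in shNAT10, mostly from Cpa3. Of the 8 genes listed only 4 were tested, of which 1 was called higher and 2 lower, with 0 in either direction without shNAT10-1, while Fcer1a and Tpsb2 were listed at 0 in every library. The 5 macrophage genes, led by Adgre1, summed to 48.1 and 52.8 FPKM in shNC and to 38.0 and 43.1 FPKM in shNAT10, with 1 higher and 1 lower of 4 tested and C1qa at 0 throughout. Neither call held without shNC-1 or shNC-2. The 6 fibroblast genes, led by Dcn, were similar in sum, with 2 of 5 tested higher, 0 lower and Lum at 0 throughout. The higher count was 1 without shNC-1, shNC-2 or shNAT10-1 and 0 without shNAT10-2. Their sums were 51.7 and 44.8 FPKM with shNC against 60.7 and 51.4 FPKM with shNAT10. Oocyte, granulosa and endothelial genes stayed under 0.5 FPKM in sum in every library, with 0 called in either direction when all libraries were used. Gdf9 and Amh, on 13 and 9 fragments in all, were called in some fits with a library left out. Whether these marker levels had a part in any chaperone result was not tested, and in bulk RNA fewer cells of a type and less RNA per cell cannot be told apart.

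The FPKM of the chaperone genes summed to 2562 and 2606 in shNC and to 2357 and 2324 in shNAT10. Both shNAT10 sums were below both shNC sums, and their mean was 90.6% of the shNC mean. The share depended on the total it was taken from. Of the FPKM of protein-coding genes, chaperone genes held 1.28% and 1.24% in shNC and 1.14% in each shNAT10 library. Of the FPKM of all genes their part was 0.123% and 0.170% with shNC and at least 0.193% in each shNAT10 library, so this share was higher in both knockdown libraries. Protein-coding genes as a whole made up 9.57% and 13.8% of all FPKM with shNC against 17.6% and 16.9% with shNAT10. Of the fragments on all genes, 0.762% and 0.894% fell on chaperone genes with shNC against 1.01% and 0.979% with shNAT10. This share rests on recovered totals that exceeded the library sizes with shNC and fell below them with shNAT10.

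A few genes carried much of this sum. Hspd1, Hspa9 and Hsp90aa1 alone gave 47.9% and 46.5% of the summed FPKM in shNC and 44.8% in both shNAT10 libraries, whereas 10 of the 77 genes had a mean under 0.1 FPKM. These 10 were not tested, and Cct8l1, Dnajc5g, Hspb3 and Hspb7 were at 0 in all 4 libraries. The tested members numbered 67, of which 59 had a mean of at least 1 FPKM and 7 a mean of at least 100 FPKM.

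A gene was called when its fold change exceeded 1.2 at an unadjusted limma p no higher than 0.05. In shNAT10, 10 of the 67 chaperone genes were called lower (14.9%), against 7.83% of all 20116 genes tested. Only 3 were called higher (4.48%), against 8.41% of all genes. The lower genes were Hspa1a, Hspa1b, Hspa13, Hspa9, Hspe1, Dnajb13, Dnajb5, Dnajc5, Dnajc21 and Dnajc6, and the higher genes were Hspb8, Hspbp1 and Dnajc24. The median log2 fold change of the members was -0.06, beside 0.01 for all genes tested. Limma without the trend called 5 members lower (7.46%, against 6.04% of all genes) and 1 higher (1.49%, against 7.64%). A replicate block gave 6 lower (8.96%, against 7.59%) and 2 higher (2.99%, against 7.89%). The lower share over all genes rose when low genes were left out. Among genes with a mean of at least 1 FPKM, 9 members were lower (15.3%, against 11.1%) and 3 higher (5.08%, against 10.9%). At the same threshold limma-voom called 10 members lower (14.9%, against 9.88%) and 2 higher (2.99%, against 10.7%). Beside these shares the surplus of lower genes was smaller. Families below are set beside all 20116 genes tested.

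With single libraries left out the lower count was smaller. Such a fit sets 2 libraries against 1, so its spread comes from the other group alone, and a call can be lost while the fold stays. Without shNC-1 the lower count was 4 (5.97% of members, against 8.25% of all genes) and without shNC-2 it was 6 (8.96% against 6.92%). Without shNAT10-1 it was 2 (2.99% against 4.47%) and without shNAT10-2 it was 3 (4.48% against 5.01%), so that the surplus over all genes was present with all 4 libraries and without shNC-2, but not without any of the other libraries. The median of the members was -0.02 without shNC-1 and -0.02 without shNAT10-1.

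No chaperone gene (0 of 67) reached a limma adjusted p under 0.05, although 15 (22.4%) had an unadjusted p under 0.05, against 16.6% of all genes. Of all genes tested, 0.437% reached that adjusted p. On simulated data limma left all planted changes above it, whereas some real genes passed, so the simulation differed from the data here. Missing that level still does not show that a gene was unchanged. A limma-voom fit on recovered fragments gave an adjusted p under 0.05 to 5 of 67 members that were lower, against 3.96% of the 18425 genes it tested, and to 0 members that were higher, against 4.67%. The 5 were Hspa1a, Hspa1b, Hspa13, Hspa9 and Hspe1. Counting only whether the libraries of the groups overlapped, 18 of the 67 had both shNAT10 libraries below both shNC libraries, against 24.1% of all genes, and 10 had both above, against 23.9%. With 2 libraries against 2, chance alone separates the groups in 0.333 of genes, counting either direction, which is also the smallest p that an exact permutation test can give.

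**Figure D1:**
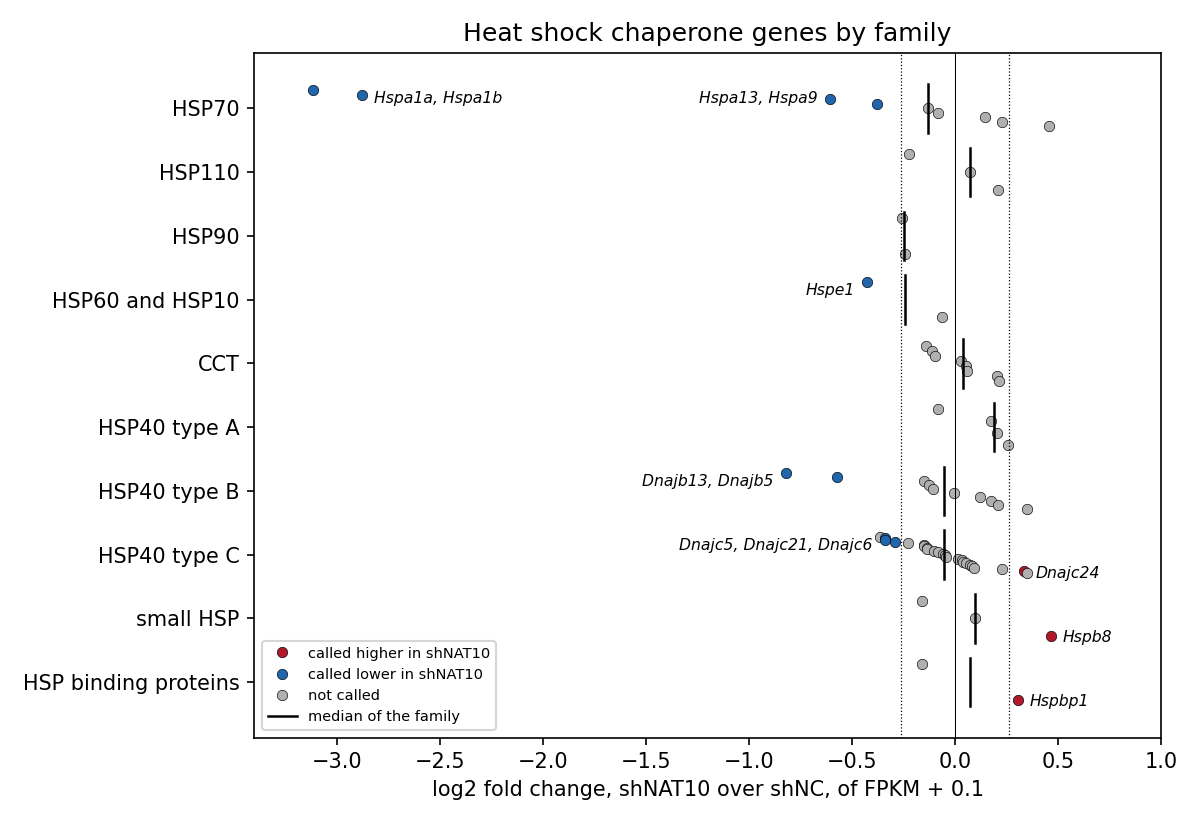
Log2 fold change of FPKM + 0.1, shNAT10 over shNC, of the 67 tested chaperone genes (points) by family, with the family median as a black bar, called genes in colour and dotted lines at a fold change of 1.2. Hspa1a and Hspa1b lie at -3.12 and -2.88, apart from the other genes, which lie between -0.82 and 0.46.

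The cytosolic HSP70 genes were where the change was largest. Hspa1a (ENSMUSG00000091971), the first of the paired heat-inducible HSP70 genes, had 3.10 FPKM (shNC-1) and 7.18 FPKM (shNC-2) in the controls and 0.376 FPKM (shNAT10-1) and 0.550 FPKM (shNAT10-2) in the knockdown. Hspa1b (ENSMUSG00000090877), which encodes an almost identical protein, had 6.11 FPKM (shNC-1) and 10.4 FPKM (shNC-2) in the controls and 1.02 FPKM (shNAT10-1) and 0.977 FPKM (shNAT10-2) in the knockdown. Both genes were far lower in both knockdown libraries than in either control library, and in both genes shNC-1 was the lower of the control libraries. Hspa1a changed by -3.12 (SE 0.45, limma, adjusted p = 0.0846), an 8.68-fold decrease on this scale, and by -1.99 with a pseudocount of 1. For Hspa1b the change was -2.88 (SE 0.29, limma, adjusted p = 0.0507), a 7.35-fold decrease, and -2.17 with a pseudocount of 1.

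Behind these values were 108 and 253 fragments of Hspa1a in shNC and 14 and 25 in shNAT10. For Hspa1b the fragments numbered 201 and 347 in shNC and 36 and 42 in shNAT10. Over the alternatives the adjusted p ran from 5.44e-05 in limma-voom to 0.511 for Hspa1a, and from 5.76e-07 in limma-voom to 0.471 for Hspa1b. Hspa1b was called with any single library left out, at -3.26 without shNC-1 and -2.50 without shNC-2. Hspa1a was called at -3.71 without shNC-1 and at -2.52 without shNC-2, and it missed the p threshold without shNAT10-1 (at -2.89) and without shNAT10-2 (at -3.34).

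The genes cannot be fully told apart by reads. Of the 150 nt windows in the Hspa1a transcript, 39.7% also occur in the transcript of Hspa1b or Hspa1l, and 40.5% of the windows in Hspa1b occur in Hspa1a or Hspa1l. Summed as 1 gene, they had 9.20 and 17.6 FPKM in the controls and 1.40 and 1.53 FPKM in the knockdown. The sum also fell clear of the control range, and its change was -3.04 (SE 0.33, limma, adjusted p = 0.0588). Counts of called genes here take Hspa1a and Hspa1b as separate genes, although their calls are not independent. In the fit that summed them, 8 of the 65 other members were called lower (12.3%, against 7.83% of all genes).

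Both genes lie on the minus strand of chromosome 17 in build GRCm38, Hspa1b at chr17:34956436-34959238 and Hspa1a at chr17:34969190-34972156, each as a single exon. A predicted protein-coding gene on the opposite strand, Gm20481, shares 564 exon bases with Hspa1a, which is 19.0% of its length. Gm20481 was at 7.10 and 14.5 FPKM in control and at 0.424 and 1.27 FPKM in knockdown libraries. It was called lower too (log2 fold change -3.60, SE 0.58, limma, adjusted p = 0.102), and since no source used here states that counting used the strand, reads of the overlap cannot be assigned to either gene.

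The bases upstream of Hspa1a and Hspa1b are shown because these genes had the largest changes. The sequences are the 250 bases before the RefSeq start, from build GRCm38.p6, minus strand, at chr17:34972157-34972406 for Hspa1a and chr17:34959239-34959488 for Hspa1b. Capitals mark a match to GAANNTTC or TTCNNGAA, each its own reverse complement, with 2 units of the heat shock element that HSF1 binds. Whether HSF1 binds such a match was not tested.
Hspa1a upstream: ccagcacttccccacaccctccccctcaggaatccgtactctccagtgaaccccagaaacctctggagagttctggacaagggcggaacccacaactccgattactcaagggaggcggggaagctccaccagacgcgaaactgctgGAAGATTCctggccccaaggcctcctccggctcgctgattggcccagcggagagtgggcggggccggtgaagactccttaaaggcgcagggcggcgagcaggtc
Hspa1b upstream: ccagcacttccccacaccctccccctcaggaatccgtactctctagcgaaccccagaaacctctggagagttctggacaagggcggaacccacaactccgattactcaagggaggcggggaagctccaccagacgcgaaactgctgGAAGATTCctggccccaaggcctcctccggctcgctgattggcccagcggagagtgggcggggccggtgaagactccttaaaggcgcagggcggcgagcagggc
The windows are identical at 247 of 250 positions. Counted from 1 at the 5′ end, with the Hspa1a base first, they differ by C44T, T47C and T249G. Each holds a single match, at positions 147 to 154, with 96 bases between it and the RefSeq start.

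Such a match is not rare. Of 32851 RefSeq windows of this length, 12.8% hold at least 1, and of the 81 windows found for 62 of the 77 chaperone genes, 18 do (22.2%), in 16 genes. Among the 13 called genes, 10 had a window, and the match was present in 3 of the 7 lower genes, Hspa1a, Hspa1b and Hspe1, and in 0 of the 3 higher genes. Genes with the match that were not called included Hsph1, Dnaja1, Dnajb4, Dnajb6, Cct2, Cct5 and Hspd1.

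The other HSP70 genes of the cytosol did not pass the test. Hspa8, which encodes the HSC70 protein that cells make at all times, had 103 and 119 FPKM with shNC against 105 and 104 FPKM with shNAT10. Its groups overlapped, with a log2 fold change of -0.08 (SE 0.10, limma, adjusted p = 0.717), but 55.4% of its 150 nt windows also occur in transcripts of 4 other genes. Hspa1a and Hspa1b together made up 8.19% and 12.9% of the summed FPKM of Hspa8, Hspa1a and Hspa1b in shNC and 1.31% and 1.45% in shNAT10. The inducible genes were thus a minor part of cytosolic HSP70 mRNA in every library and a smaller part in the knockdown.

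Hspa14, a ribosome-associated HSP70, had 20.1 and 19.9 FPKM in the controls and 21.8 and 22.5 FPKM in the knockdown. Hspa2, known from spermatocytes, was at 2.54 and 2.49 FPKM in control and at 2.17 and 2.42 FPKM in knockdown libraries. Hspa1l, the neighbour of Hspa1a on the opposite strand of chromosome 17, had 0.964 and 0.511 FPKM with shNC against 1.13 and 0.897 FPKM with shNAT10. None of these 3 was called, and Hspa1l overlapped between the groups. An antisense gene, Gm10501, shares 71.9% of the exon bases of Hspa1l.

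The organelle HSP70 genes of the list were both lower. Hspa9 (ENSMUSG00000024359), mitochondrial HSP70 or mortalin, which pulls precursors through the inner membrane and folds them in the matrix, had 399 FPKM (shNC-1) and 405 FPKM (shNC-2) in the controls and 302 FPKM (shNAT10-1) and 317 FPKM (shNAT10-2) in the knockdown. The control libraries lay close together and well above both knockdown libraries. The log2 fold change was -0.38 (SE 0.09, limma, adjusted p = 0.170), and the adjusted p over the alternatives ran from 0.00400 in limma-voom to 0.527. Hspa9 missed the p threshold without shNAT10-1 (at -0.34), without shNAT10-2 (at -0.41) and with limma without the trend.

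Hspa13 (ENSMUSG00000032932), a truncated HSP70 of the ER, had 17.9 FPKM (shNC-1) and 16.0 FPKM (shNC-2) in the controls and 11.8 FPKM (shNAT10-1) and 10.4 FPKM (shNAT10-2) in the knockdown. Again both knockdown libraries were below both controls. The change was -0.61 (SE 0.12, limma, adjusted p = 0.130), with adjusted p from 0.00113 in limma-voom to 0.471 over the alternatives. The call was lost without shNC-1 (at -0.52) and without shNAT10-2 (at -0.51).

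Hspa13 shares its compartment with the ER chaperone genes that the rule left out, of which 5 of 6 were called lower, against 7.83% of all genes. Without shNC-1, without shNC-2 or without shNAT10-1 it was 4 of 6, and without shNAT10-2 it was 5. The most abundant, Hspa5, had 1318 and 1501 FPKM in the controls and 529 and 604 FPKM in the knockdown, at a log2 fold change of -1.32 (SE 0.13, limma, adjusted p = 0.0518), and Dnajc10 was the gene not called.

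Over the whole HSP70 family, 4 of 9 tested genes were called lower and 0 higher, against 7.83% and 8.41% of all genes. The lower count was 3 without shNC-1, 4 without shNC-2, 2 without shNAT10-1 and 1, Hspa1b, without shNAT10-2. The family summed to 554 and 580 FPKM in shNC and to 446 and 459 FPKM in shNAT10, which is 79.8% of the shNC mean. Its median log2 fold change was -0.13, and -0.30 without shNC-2.

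The HSP110 genes, whose products release ADP from HSP70, had no called member among 3. Of all genes, 8.41% were called higher and 7.83% lower, so with so few members this lies near these shares. Hspa4, the most abundant, was at 60.4 and 50.1 FPKM in control and at 58.6 and 57.3 FPKM in knockdown libraries. Hspa4l had 5.73 and 5.81 FPKM with shNC against 6.59 and 6.76 FPKM with shNAT10. Hsph1, an HSF1 target, had 7.56 and 9.52 FPKM in the controls and 8.14 and 6.45 FPKM in the knockdown. Hspa4 and Hsph1 overlapped between the groups, and Hspa4l was slightly higher in both knockdown libraries. The log2 fold changes were 0.08 (SE 0.12), 0.21 (SE 0.10) and -0.22 (SE 0.18) in that order. The family median, 0.08, was 0.20 without shNC-1 and -0.06 without shNC-2.

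The cytosolic HSP90 genes were lower in both knockdown libraries, by less than the threshold. Hsp90aa1, the inducible form, was at 422 and 390 FPKM in control and at 372 and 317 FPKM in knockdown libraries. Hsp90ab1, the constitutive form, had 146 and 159 FPKM with shNC against 125 and 131 FPKM with shNAT10. In both genes every knockdown library lay below every control library, although the gap for Hsp90aa1 was smaller than the distance between its shNAT10 libraries. Of the 150 nt windows in the Hsp90aa1 transcript 36.2% also occur in transcripts of 3 other genes. Hsp90aa1 changed by -0.24 (SE 0.12, limma, adjusted p = 0.416) and Hsp90ab1 by -0.26 (SE 0.09, limma, adjusted p = 0.271). For Hsp90ab1 the p passed and the fold of 1.19 did not, and it was called with quantile normalization (-0.28) and without shNC-1 (-0.32). The summed FPKM of both genes was 84.5% of the shNC mean.

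Of 21 listed HSP90 co-chaperone genes 20 were tested, of which 1 was called higher and 0 lower, where 8.41% and 7.83% of all genes were. A log2 fold change above 0 was found for 15 of the 20, against 50.5% of all genes, most of them without a call, and the median was 0.13. Which of these genes were called depended on the library left out. More were called without shNC-1, and Ptges3 replaced Fkbp4 without shNC-2. Neither fit without a shNAT10 library called a gene of the list. Fkbp4, an immunophilin of steroid receptor complexes, had 90.9 and 75.4 FPKM in the controls and 101 and 106 FPKM in the knockdown. Both knockdown libraries exceeded both controls, with a change of 0.32 (SE 0.12, limma, adjusted p = 0.295). Its call was lost without shNC-2 (at 0.19), without shNAT10-1 (at 0.36) and without shNAT10-2 (at 0.28). It was also lost with no filter, equal protein-coding totals, quantile normalization, limma without the trend and the replicate block, which makes 8 of 13 alternatives. The 20 tested genes together with Unc45b, which was at 0, summed to 615 and 597 FPKM in shNC and to 666 and 680 FPKM in shNAT10.

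**Figure D2:**
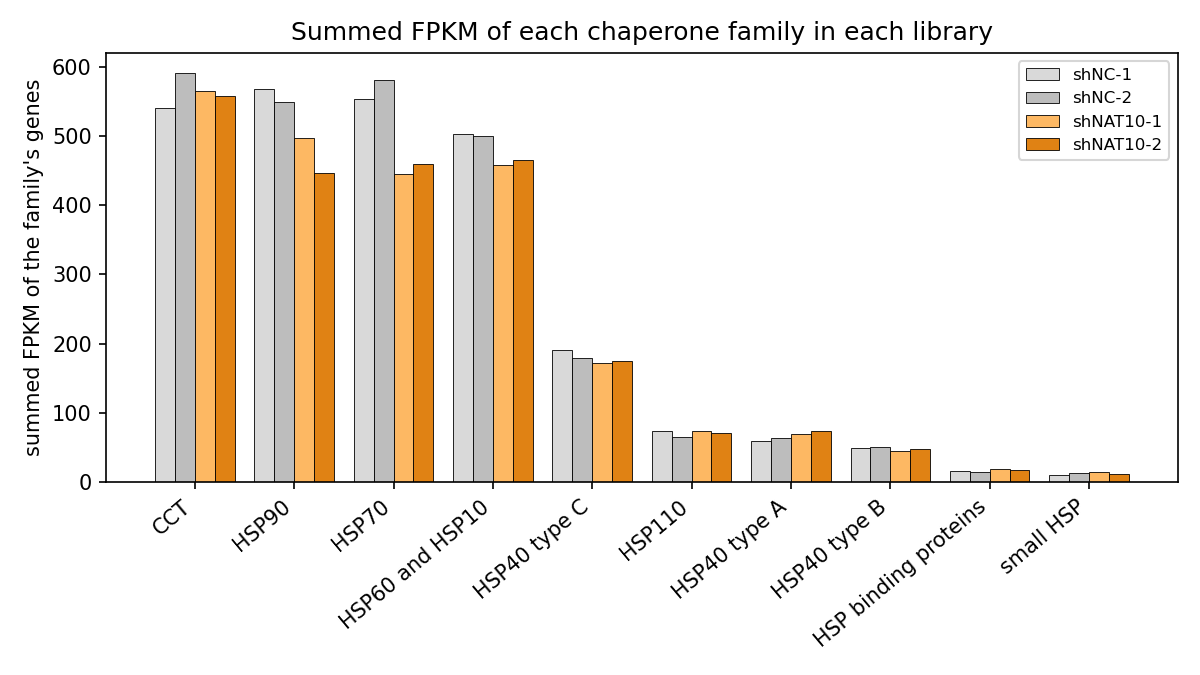
Summed FPKM of the genes of each chaperone family (bars, linear axis from 0) in the 2 shNC libraries (grey) and the 2 shNAT10 libraries (orange). The HSP70 and HSP90 bars of shNAT10 are lower than those of shNC, at 79.8% and 84.5% of the shNC mean, while CCT stands at 99.2%.

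In mitochondria, HSP60 and its lid HSP10 form the chamber that folds matrix proteins. Hspd1, which encodes HSP60 and had the highest mean FPKM of the 77 genes, was at 407 and 418 FPKM in control and at 383 and 407 FPKM in knockdown libraries. Hspe1 (ENSMUSG00000073676), which encodes HSP10, had 95.2 and 81.3 FPKM with shNC against 74.3 and 57.8 FPKM with shNAT10. Hspd1 libraries nearly touched between the groups, while Hspe1 spread widely within each group and still did not overlap. Hspd1 changed by -0.06 (SE 0.09, limma, adjusted p = 0.774) and was not called. Hspe1 was called lower at -0.42 (SE 0.16, limma, adjusted p = 0.299), and over the alternatives its adjusted p ran from 0.0302 in limma-voom to 0.634.

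The Hspe1 call was a narrow one. It was lost with any single library left out, the change then lying between -0.60 and -0.24, and 9 of 13 alternatives did not call it. The difference between the changes of Hspe1 and Hspd1 was not tested. Of the 150 nt windows in the Hspe1 transcript 14.1% occur at another locus, and 18.6% of those in Hspd1.

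The genes stand head to head on chromosome 1, Hspd1 on the minus strand at chr1:55077835-55088243 and Hspe1 on the plus strand at chr1:55088132-55091307, and their annotated exons share 112 bases. Upstream of the RefSeq start of Hspe1 lies a run of heat shock element units, shown here as 30 bases at chr1:55088053-55088082 of GRCm38.p6, plus strand, from RefSeq. In the annotation it falls on the minus strand in an exon of an Hspd1 transcript. Capitals mark the overlapping matches to GAANNTTCNNGAA and its reverse complement TTCNNGAANNTTC.
Hspe1 site: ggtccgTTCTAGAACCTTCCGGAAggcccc
This longer form is uncommon, present in 0.466% of the 32851 windows. Of the 81 windows of chaperone genes 4 hold it, and they belong to Hspd1, Hspe1 and Dnajb6. Dnajb6 was not called, so the form was present in 1 of the 10 called genes with a window.

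Other mitochondrial chaperones and proteases were mostly not called. Of 12 listed genes, 1 was called lower (8.33%, against 7.83% of all genes), 0 were higher and the median log2 fold change was 0.04. Lonp1, the matrix protease that degrades damaged proteins, had 124 and 113 FPKM in the controls and 78.9 and 81.6 FPKM in the knockdown. Both knockdown libraries were clearly below the controls, with a change of -0.56 (SE 0.09, limma, adjusted p = 0.0935), and the call held with any single library left out. Trap1, the HSP90 of mitochondria, was at 44.1 and 42.8 FPKM in control and at 49.4 and 53.4 FPKM in knockdown libraries. Its change of 0.24 (SE 0.09, limma, adjusted p = 0.277) was under the fold threshold, and it was called higher without shNAT10-1.

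The CCT complex, a ring of subunits that folds actin and tubulin, showed no called gene. Of 9 members 8 were tested and 0 were called in either direction, where 8.41% of all genes were called higher and 7.83% lower. With so few genes, 0 calls lies near these shares. Cct5, the most abundant subunit mRNA, had 190 and 198 FPKM with shNC against 199 and 198 FPKM with shNAT10. Cct2 had 136 and 167 FPKM in the controls and 139 and 140 FPKM in the knockdown. Cct3 was at 41.9 and 42.1 FPKM in control and at 47.1 and 49.8 FPKM in knockdown libraries. Cct5 and Cct2 overlapped between the groups, and Cct3 was higher in both knockdown libraries by 0.20 (SE 0.08, limma, adjusted p = 0.314), which missed both thresholds.

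The remaining subunits differed more from each other than between the groups. Cct4 and Cct7 lay between 67.4 and 82.2 FPKM in every library, Tcp1 between 19.7 and 21.4 FPKM and Cct8 between 10.2 and 16.7 FPKM, although the subunits occupy the ring in equal numbers. These levels are per kilobase of all annotated exon bases, so unused exons lower them. Cct6b, the testis form, stayed under 0.4 FPKM and rested on 20 fragments in all. Cct6a was outside the rule because its biotype in the table is processed_transcript, and it had 106 and 114 FPKM with shNC against 115 and 121 FPKM with shNAT10, without a call.

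The family sum was 540 and 590 FPKM in the controls and 565 and 557 FPKM in the knockdown. The sums overlapped, and the median log2 fold change of 0.04 was -0.03 with quantile normalization and -0.04 without shNAT10-1. Of 10 listed genes of CCT partners and of prefoldin, which hands actin and tubulin to CCT, 9 were tested and 0 were called, with a median log2 fold change of -0.09, but 2 were lower without shNC-1 and 1 was higher without shNC-2.

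The J proteins of type A, which carry the full domain layout of bacterial DnaJ, were not called. Dnaja2, the most abundant of the 4 genes, was at 43.7 and 49.0 FPKM in control and at 53.8 and 56.9 FPKM in knockdown libraries. Dnaja1, an HSF1 target, had 6.72 and 8.23 FPKM with shNC against 9.10 and 8.10 FPKM with shNAT10. Dnaja2 was higher in both knockdown libraries, whereas Dnaja1 overlapped. Dnaja2 changed by 0.26 (SE 0.10, limma, adjusted p = 0.299), which missed the fold threshold, and it was called without shNC-2 (at 0.34). The median of type A was 0.19, and 0.08 without shNC-2.

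Type B had 2 genes called lower among 10 tested, against 7.83% of all genes. Dnajb5 (ENSMUSG00000036052), a J protein of the cytosol and nucleus, had 2.45 FPKM (shNC-1) and 2.06 FPKM (shNC-2) in the controls and 1.41 FPKM (shNAT10-1) and 1.55 FPKM (shNAT10-2) in the knockdown. Dnajb13 (ENSMUSG00000030708), known from cilia and sperm tails, had 1.22 FPKM (shNC-1) and 1.39 FPKM (shNC-2) in the controls and 0.554 FPKM (shNAT10-1) and 0.860 FPKM (shNAT10-2) in the knockdown. Both were low in abundance and lower in each knockdown library than in either control. Dnajb5 changed by -0.57 (SE 0.18, limma, adjusted p = 0.247) and Dnajb13 by -0.82 (SE 0.29, limma, adjusted p = 0.273).

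Dnajb5 lost its call with any single library left out (at -0.69 to -0.45) and with the replicate block. Dnajb13 lost it with any library except shNAT10-2 left out (at -0.91 to -0.54), with no filter and with a mean of at least 1 FPKM. The type B count was thus 0 without shNC-1, without shNC-2 or without shNAT10-1, and 1 without shNAT10-2. Dnajb13 rested on 139 fragments in all and shares 305 exon bases with Ucp2 on the opposite strand. Ucp2 was itself called lower, with 6.81 FPKM in both shNC libraries and 5.37 and 5.57 FPKM in shNAT10.

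Dnajb1, the main heat-inducible partner of HSP70, was not among the called genes. It had 16.5 and 20.6 FPKM in the controls and 15.9 and 17.4 FPKM in the knockdown. The groups overlapped, and the change was -0.15 (SE 0.14, limma, adjusted p = 0.628). Dnajb6, a suppressor of protein aggregation and the most abundant type B mRNA, was at 20.4 and 17.8 FPKM in control and at 18.9 and 19.2 FPKM in knockdown libraries, also with overlap.

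Type C, the J proteins with little in common beyond the J domain, had 3 genes called lower (12.5%, against 7.83% of all genes) and 1 called higher (4.17%, against 8.41%) among 24 tested. The lower count was 2 without shNC-2 (Dnajc6 and Dnajc8), 1 without shNAT10-2 (Dnajc4) and 0 without shNC-1 or shNAT10-1. Dnajc6, or auxilin, which recruits HSP70 to uncoat clathrin vesicles, had 16.4 and 14.4 FPKM with shNC against 12.6 and 12.5 FPKM with shNAT10. Dnajc5, the cysteine string protein of secretory vesicles, had 9.36 and 8.67 FPKM in the controls and 6.74 and 7.47 FPKM in the knockdown. Dnajc21, which acts in ribosome assembly, was at 5.45 and 5.63 FPKM in control and at 4.54 and 4.19 FPKM in knockdown libraries. In each of these 3 genes the knockdown libraries lay below the controls by a modest step.

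The changes were -0.29 for Dnajc6 (SE 0.11, limma, adjusted p = 0.282), -0.34 for Dnajc5 (SE 0.11, limma, adjusted p = 0.261) and -0.34 for Dnajc21 (SE 0.12, limma, adjusted p = 0.272). Dnajc5 and Dnajc21 lost their calls with any single library left out, at -0.41 to -0.27 and -0.39 to -0.28, and Dnajc6 with any except shNC-2, at -0.30 to -0.20. The replicate block and limma without the trend ended all 3 calls, and quantile normalization and equal protein-coding totals that of Dnajc6. Dnajc24, which takes part in making diphthamide on elongation factor EEF2, went the other way. It had 7.21 and 6.15 FPKM with shNC against 8.32 and 8.53 FPKM with shNAT10. Both knockdown libraries were above both controls, with a change of 0.33 (SE 0.12, limma, adjusted p = 0.295), and the call held without shNC-1 (at 0.45) but with no other library left out. It was lost in 8 of 13 alternatives, among them limma-voom, the replicate block, limma without the trend, quantile normalization and equal protein-coding totals. Other type C genes were called higher with a library left out, Dnajc25 without shNC-1 and Dnajc19 without shNC-2.

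Dnajc2, a ribosome-associated J protein and the most abundant of type C, had 49.5 and 48.2 FPKM in the controls and 44.5 and 44.4 FPKM in the knockdown. The libraries of each group were close and did not overlap, at -0.13 (SE 0.08, limma, adjusted p = 0.468), without a call. The largest positive value of the type was that of Dnajc22, with 1.79 and 1.14 FPKM in control and 1.21 and 2.82 FPKM in knockdown libraries. Its log2 fold change of 0.35, without a call, was -0.23 without shNAT10-2 and 0.04 without shNC-2. It was 0.93 without shNAT10-1 and 0.66 without shNC-1. The median of type C was -0.05, and -0.14 without shNAT10-2.

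Among the genes with small HSP symbols, a family known for holding unfolded proteins without ATP, most were silent or nearly so. Of 8 members 5 were under a mean of 0.1 FPKM, including Hspb1, the gene of HSP27, with 3 fragments in all. Hspb8 (ENSMUSG00000041548), which works with BAG3 in chaperone-assisted autophagy, had 5.41 FPKM (shNC-1) and 5.36 FPKM (shNC-2) in the controls and 7.68 FPKM (shNAT10-1) and 7.26 FPKM (shNAT10-2) in the knockdown. The control libraries were almost equal, and both knockdown libraries stood clearly above them. Hspb8 was called higher at 0.46 (SE 0.11, limma, adjusted p = 0.163), also with any single library left out, and its adjusted p over the alternatives ran from 0.101 to 0.487. Its partner Bag3 had 0.532 and 0.723 FPKM with shNC against 0.342 and 0.484 FPKM with shNAT10, without a call. The 3 tested genes, grouped by symbol alone, were Hspb6, Hspb8 and Hspb11. Their median of 0.10 was -0.29 without shNAT10-1 and 0.49 without shNAT10-2.

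Hspbp1 (ENSMUSG00000063802), a nucleotide exchange factor that binds HSP70 and inhibits its folding activity, was also called higher. It had 13.2 FPKM (shNC-1) and 13.1 FPKM (shNC-2) in the controls and 16.5 FPKM (shNAT10-1) and 16.1 FPKM (shNAT10-2) in the knockdown. Replicates were nearly equal within each group and separate between them. The change was 0.30 (SE 0.09, limma, adjusted p = 0.214), called with any single library left out but not with limma without the trend.

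**Figure D3:**
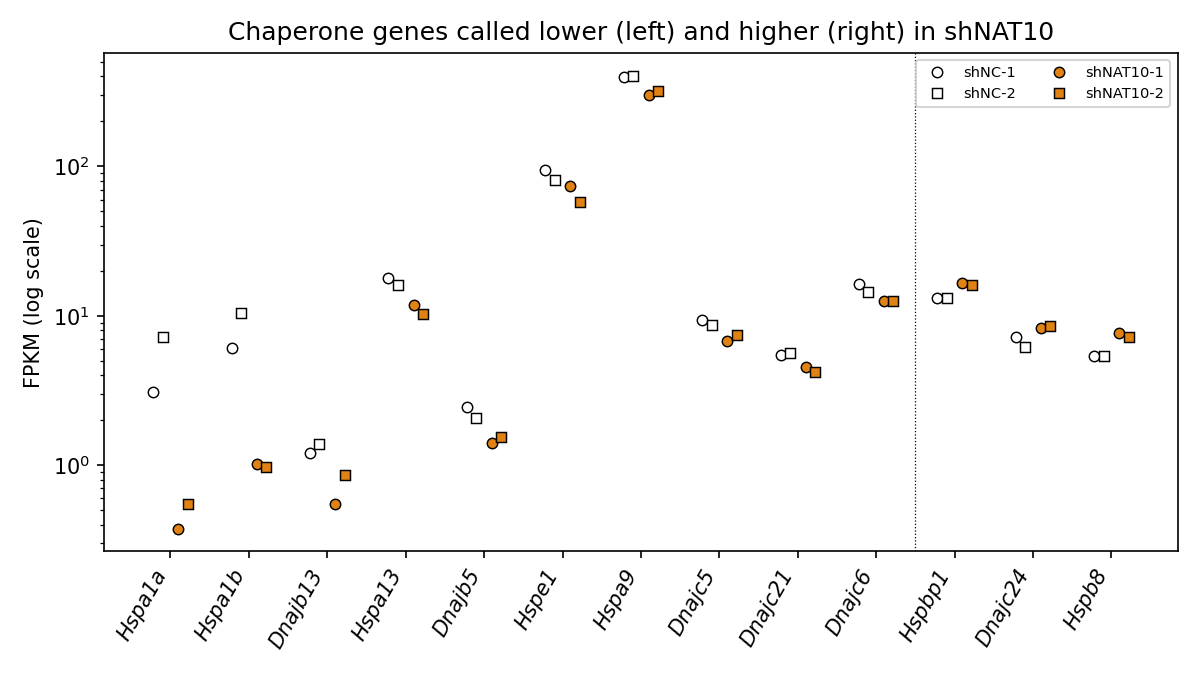
FPKM (log scale) of the 13 called chaperone genes in each library, with shNC-1 and shNC-2 as open and shNAT10-1 and shNAT10-2 as filled symbols, lower genes to the left and higher genes to the right of the dotted line. Apart from Hspa1a and Hspa1b, where the knockdown libraries lie between 0.376 and 1.02 FPKM, the groups are separated by small steps.

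The exchange factors and co-chaperones of HSP70 outside the rule had 1 gene called higher among 12 (8.33%, against 8.41% of all genes) and 0 lower. Without shNAT10-1 or shNAT10-2 it was 0 higher, and without shNC-1 or shNC-2 there was also 1 lower. St13, or HIP, which slows the release of ADP from HSP70, had 13.5 and 15.6 FPKM in the controls and 19.4 and 19.1 FPKM in the knockdown. The knockdown libraries were above both controls, with a change of 0.41 (SE 0.11, limma, adjusted p = 0.199). Its adjusted p over the alternatives ran from 0.0148 in limma-voom to 0.543, and the call was lost without shNAT10-1 (at 0.40), without shNAT10-2 (at 0.42) and with limma without the trend.

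The factors that control heat shock genes were of low abundance. Hsf1 was at 1.69 and 1.61 FPKM in control and at 1.40 and 1.72 FPKM in knockdown libraries. Hsf2 had 1.16 and 1.27 FPKM with shNC against 1.28 and 1.42 FPKM with shNAT10. Hsf1 overlapped between the groups, Hsf2 differed by 0.14 (SE 0.20), and neither was called. Hsbp1, which encodes a protein that binds HSF1, had 7.96 and 7.97 FPKM in the controls and 6.12 and 5.61 FPKM in the knockdown. Of 7 listed genes only 3 were tested, and Hsbp1 was the 1 that was called lower, against 7.83% of all genes. The change of Hsbp1 was -0.44 (SE 0.11, limma, adjusted p = 0.186), and the call also held with any single library left out.

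A list of 23 genes was drawn up as targets of HSF1 in heat shock and held 14 members. It is a loose list, since it includes Hspa8 and Hsp90ab1, which are also made without stress, and Hspa1l, known from testis. It was drawn up with earlier results of these data known, so its shares are no independent support. Hspa1a and Hspa1b are again counted separately. Of 22 tested, 5 were called lower (22.7%, against 7.83% of all genes), namely Hspa1a, Hspa1b, Hspe1, Atf3 and Ubb. Hspb8 and Fkbp4 were called higher (9.09%, against 8.41%), and the median log2 fold change was -0.12. The lower count was 4 without shNC-1, 3 without shNC-2, 2 without shNAT10-1 and 2 without shNAT10-2. Of these 7 genes, Hspa1b, Atf3 and Hspb8 kept their calls with any single library left out. Atf3, a transcription factor induced by many stresses, was at 7.63 and 7.74 FPKM in control and at 3.40 and 3.60 FPKM in knockdown libraries. Ubb, a polyubiquitin gene, had 815 and 859 FPKM with shNC against 673 and 692 FPKM with shNAT10. Both were clear of the control range, Atf3 by a wide gap. Atf3 changed by -1.11 (SE 0.11, limma, adjusted p = 0.0507), also called with any single library left out. Ubb changed by -0.29 (SE 0.10, limma, adjusted p = 0.272), a call that was lost in 7 of 13 alternatives, with any library left out among them.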

How the data were processed

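The authors deposited FPKM per gene for 4 libraries and, in another table, the FPKM of part of these genes again with fold changes and p-values of their own comparison, which was not used. The submitters' notes, written by the authors, name cutadapt, HISAT2, DESeq2 and build mm10. The labels describe mRNA isolation with the Oligotex kit and a directional NEB kit, and the methods describe depletion of rRNA, so the records differ. The counting program, its strand setting and its annotation are not given in the sources used here. Columns of single libraries left out numbered 0.

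For the comparison of shNAT10 with shNC, limma 3.58.1 in R 4.3.3 (eBayes with a trend, both sides) was run on log2(FPKM + 0.1). It covered the 20116 genes whose mean reached 0.1 FPKM, with Benjamini-Hochberg adjustment over all of them. Low genes have their change understated on this scale. Fragments were recovered from FPKM and GENCODE M21 exon lengths, and 96.0% to 96.6% of values under 50 fragments came out whole within 0.02. They served to describe depth and for limma-voom. Both tests were tested on simulated data, where each called most planted changes by the threshold, but only limma-voom brought them under an adjusted p of 0.05.

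Alternatives tried were a pseudocount of 1 or 0.01, dropping the filter or raising it to a mean of 1 FPKM, median-ratio rescaling, equal protein-coding totals, quantile normalization, limma without the trend, a replicate block, each library left out and limma-voom. Median-ratio factors were 1.00 in every library, so that rescaling could change nothing and is not counted among the 13 alternatives per gene. Summing Hspa1a and Hspa1b was chosen after the data were seen.

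The genes named are called members, the most abundant member of each family, the 5 largest positive and 5 largest negative changes among members of at least 1 FPKM, 11 well-known members, called genes of the 6 partner lists, Nat10, Hsf1 and Hsf2. All other genes, such as Hspa14, Hspa2, Hspa1l, Hspa4l, Trap1, Bag3, the other CCT subunits, ER genes and overlapping genes, were named after their values were seen. Members and lists were chosen with earlier results of these data known. Upstream windows came from RefSeq, and 150 nt windows were compared between GENCODE M21 transcripts. Python 3.11.15 with numpy 2.4.6, pandas 2.3.3, scipy 1.17.1 and matplotlib 3.10.9 was used.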

Additional observations from a re-analysis of the deposited data

How the results depend on the processing

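With 2 libraries per group and no chaperone gene at a limma adjusted p under 0.05, the calls rest on unadjusted p-values. Over the 34 named genes other than Nat10 and 13 alternatives, 367 outcomes stayed the same, 72 were weaker and 3 were stronger. The 367 include genes that were not called and stayed so, while all 72 were lost calls. Nat10 had 11 the same and 2 weaker, and no called gene changed sign. Genes not called that changed sign in some alternative were Cct5, Dnajb1, Dnajb6, Dnajc22, Hspa4, Hspa8 and Hsf1. Reads shared between related genes or opposite strands could not be separated, and protein levels and ac4C were not analysed here.

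With limma without the trend, 1 gene was called higher (1.49%, against 7.64% of all genes) and 5 lower (7.46%, against 6.04%). With single libraries left out, the lower count ran from 2 to 6. The replicate block gave 6 lower genes (8.96%, against 7.59% of all genes). In both fits the surplus of lower genes over all genes was much smaller than 14.9% against 7.83%. The differences between the replicates of a group had a Pearson r of 0.00711 between shNC and shNAT10 over 20116 genes. Libraries of the same number thus showed no sign of pairing.

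The members' median was -0.0400 with a pseudocount of 1, -0.0836 with a mean FPKM of at least 1 and -0.0725 to -0.0195 with single libraries left out. For families, CCT was -0.0288 with quantile normalization, HSP40 type A 0.13 with a pseudocount of 1, and HSP70 -0.38 with a mean FPKM of at least 1.

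With single libraries left out, the medians ran from -0.0446 to 0.0729 for CCT, -0.0597 to 0.20 for HSP110, 0.0758 to 0.21 for HSP40 type A, -0.15 to 0.00344 for type B, -0.14 to -0.0224 for type C, -0.30 to -0.0947 for HSP70 and -0.29 to 0.49 for small HSPs. Nat10 ran from -1.35 to -0.83, Hspa1a from -3.71 to -2.52 and Hspa1b from -3.26 to -2.50. Why these values moved was not tested.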
